A study of Mus musculus with 27 samples.

Results

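The comparison described here sets 3 libraries of mouse brain collected 24 h after UVB irradiation of the skull against 3 collected 0.5 h after it, 6 of the 27 libraries of the series, over all genes of the deposited count table. Of 37095 gene symbols, 18172 had enough counts to be tested, 15603 fell below the count filter and 3320 were at 0 in all 9 brain libraries. The series measured poly(A) RNA in bulk brain, meninges and skull, each untreated and at 0.5 h and 24 h after UVB light (311 nm, 2 mW) had been directed at the interparietal bone, the rear part of the skull roof. Each of the 9 groups of tissue and time has 3 libraries. Both brain groups compared were irradiated, so untreated brain is given beside them. The labels give no strain, genotype, sex or age, no time of day and no part of the brain. They do not say that libraries of a group came from separate animals, so the p-values measure only the spread between these libraries, which may be technical.

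Several genes that changed belong to well-known programmes. The endoplasmic reticulum folds secreted and membrane proteins, and when unfolded protein accumulates the transcription factors ATF6 and XBP1 raise its chaperones through short elements in their promoters. Kinases of the CLK family phosphorylate SR proteins, which help to select splice sites, and Rbm3 is an RNA-binding protein whose messenger is known to rise with mild cooling. In the striatum, projection neurons of the direct and the indirect pathway are told apart by the dopamine receptors Drd1 and Drd2.

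The 6 libraries held 14208961 to 15314803 counts, and all 27 held 14208961 to 27305294. All 18 neuron markers were tested, with summed levels of 12420, 13184 and 12615 CPM at 0.5 h and 13861, 12310 and 12833 CPM at 24 h, where CPM is a gene's count after scaling all libraries to a common size. Counts of replicate brain libraries differed by 4.84 to 11.3 times the variance expected from sampling alone, so no library was a second reading of another. In tissue content 2 brain libraries stood apart: markers of the choroid plexus, the secretory epithelium of the ventricles, summed to 67.3 CPM in 0.5 h library 1 and 226 CPM in untreated library 1, against 499 to 685 CPM in the other 7. Untreated library 1 also stood apart in depth, with 27305294 counts against 14208961 to 16134361 in the other brain libraries. Its inflammatory genes summed to 486 CPM, against 188 to 221 CPM in the other brain libraries. For MHC presentation genes these values were 766 CPM against 152 to 316 CPM, and for reactive astrocyte genes 295 CPM against 106 to 133 CPM.

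At an adjusted p under 0.05 (edgeR quasi-likelihood test, Benjamini-Hochberg adjustment over all tested genes), 40 genes changed, which is 0.220% of those tested. At 24 h 16 were higher (0.0880%) and 24 lower (0.132%), and 33 of the 40 carry an established symbol. The median log2 fold change of all tested genes was −0.0031. In each of the 40 the 3 libraries of 24 h lay wholly above or wholly below those of 0.5 h. Over all tested genes 9.34% lay wholly above and 8.84% wholly below, and 50.6% had a negative value. The counts within gene lists given further on stand beside these shares. Largest among the 9 named genes that rose were Rbm3 (0.96) and Mex3b (0.72), and among the 24 that fell Clec12a (−3.53), Cysltr2 (−2.77) and Gpr6 (−1.95).

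**Figure D1:**
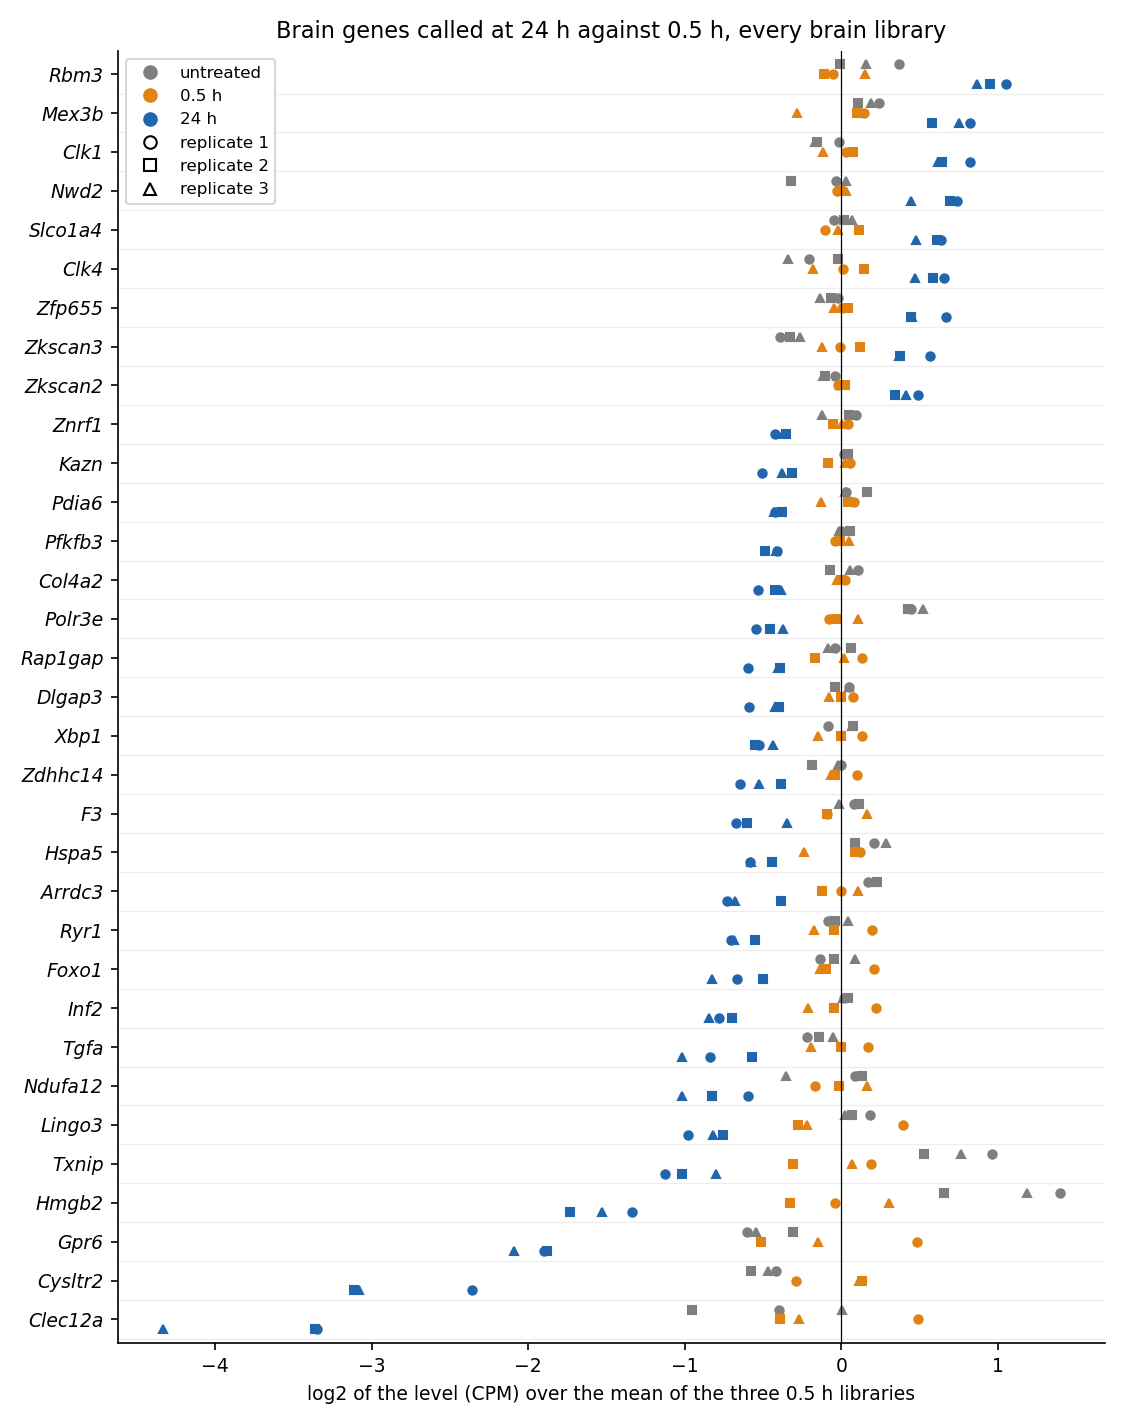
Level of the 33 called genes with an established symbol in every brain library, as log2 of CPM over the mean of the 3 libraries of 0.5 h (untreated grey, 0.5 h orange, 24 h blue; marker shapes are replicate numbers). The 3 blue points of each gene lie on 1 side of the 3 orange points. For some genes, among them Txnip, Hmgb2 and Polr3e, the grey points lie on the other side.

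Without 0.5 h library 1, 7 of the 40 calls remained, and no other gene was called. In each of the 9 fits that drop a brain library these 7 were called: Clk1, Rbm3, Inf2, Gpr6 and 3 genes without an established symbol, A330023F24Rik, Gm43980 and Gm42979. The count was 16 without 24 h library 1 and 91 without 24 h library 2. All 40 kept their direction in each of these fits.

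The cold-inducible gene Rbm3 (chrX:8138975-8145880, minus strand, GRCm38) rose most among named genes. It measured 27.2, 26.1 and 31.4 CPM at 0.5 h and 58.6, 54.5 and 51.5 CPM at 24 h, beside 36.5, 28.1 and 31.5 CPM in untreated brain. The untreated and 0.5 h libraries overlapped, and every 24 h library was higher than all of them. The change was 0.96 ± 0.11 on the log2 scale (SE, n = 3 and 3, edgeR adjusted p = 0.000561), and 0.94 without 0.5 h library 1 (adjusted p = 0.00570). Its exons overlap those of the antisense gene Rbm3os over 94 bases, and whether the counting used strand is not given in the sources used here. Cirbp, the other classical cold-inducible RNA-binding protein, differed by 0.09 ± 0.10 (edgeR adjusted p = 0.761), with 55.8, 62.0 and 69.9 CPM at 0.5 h and 58.1, 70.3 and 71.0 CPM at 24 h, which overlap.

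Clk1 and Clk4 both rose. Clk1 (chr1:58410189-58424066) measured 94.2, 97.0 and 85.1 CPM at 0.5 h and 163, 144 and 141 CPM at 24 h, a change of 0.70 ± 0.08 (n = 3 and 3, edgeR adjusted p = 0.000561). Untreated brain held 91.2, 82.8 and 82.2 CPM, within or just below the 0.5 h range. Clk4 (chr11:51261730-51281766) went from 66.5, 73.0 and 58.3 CPM to 104, 99.0 and 91.5 CPM, a change of 0.57 ± 0.10 (edgeR adjusted p = 0.0124; 57.2, 65.1 and 52.1 CPM in untreated brain). Its call ended without 0.5 h library 1 (0.58, adjusted p = 0.0682), and also without 0.5 h library 3 or 24 h library 1. The other members of the family did not pass: Clk2 differed by 0.37 ± 0.10 (adjusted p = 0.124) and Clk3 by 0.08 ± 0.08 (adjusted p = 0.760). Of the 16 tested splicing kinases of the CLK, DYRK, SRPK and HIPK families, 2 rose and 0 fell, 6 lay wholly above, and the median was 0.10. Dyrk2 (0.32 ± 0.10, adjusted p = 0.196) was next in p after Clk2.

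The list of SR proteins, which CLK kinases phosphorylate, and of related splicing proteins held 33 tested members. Of these edgeR called 0, with 7 higher and 0 lower at an unadjusted p under 0.05. Over all genes 5.71% were higher and 6.44% lower at that level. DESeq2 called 3 of them higher and limma-voom 1. The members with the smallest p were Srsf5 (0.27 ± 0.06, edgeR adjusted p = 0.0610), Pnisr (0.26 ± 0.06, 0.108), Rbm5 (0.28 ± 0.07, 0.108) and Tra2a (0.30 ± 0.08, 0.149). Srsf5, which encodes an SR protein, measured 319, 319 and 314 CPM at 0.5 h and 386, 390.0 and 375 CPM at 24 h, beside 311, 317 and 316 CPM in untreated brain. The median of the list was 0.08. Among 27 hnRNPs, which bind nascent transcripts, edgeR, DESeq2 and limma-voom called 0, with 3 higher and 3 lower at an unadjusted p under 0.05. Hnrnpa1 (−0.18 ± 0.07), Hnrnpu (0.16 ± 0.06), Hnrnpd (0.18 ± 0.07) and Hnrnpm (−0.14 ± 0.07) were first in p.

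Of the 33 tested genes of the endoplasmic reticulum list, Hspa5, Xbp1 and Pdia6 fell and 0 rose. Hspa5 (chr2:34771970-34777547) encodes BiP, the main chaperone of that compartment. It measured 382, 375 and 299 CPM at 0.5 h and 235, 259 and 236 CPM at 24 h, a change of −0.53 ± 0.09 (n = 3 and 3, edgeR adjusted p = 0.0124), with 407, 374 and 429 CPM in untreated brain. Every 24 h library was thus below all 6 others. Xbp1 (chr11:5520659-5525893), a transcription factor of the unfolded protein response, went from 84.2, 76.7 and 69.1 CPM to 53.2, 52.4 and 56.7 CPM (−0.50 ± 0.09, edgeR adjusted p = 0.0160; untreated 72.4, 80.6 and 80.3 CPM). Pdia6 (chr12:17266545-17284770), a disulfide isomerase, went from 132, 129 and 114 CPM to 93.2, 96.3 and 92.7 CPM (−0.41 ± 0.07, edgeR adjusted p = 0.0223; untreated 128, 140.0 and 127 CPM). Its exons share 50 bases with Atp6v1c2 on the opposite strand. All 3 calls ended without 0.5 h library 1, where the changes were −0.46 for Hspa5 (adjusted p = 0.0845), −0.42 for Xbp1 (0.105) and −0.36 for Pdia6 (0.152). They ended also without 0.5 h library 2 or 24 h library 1 and, for Hspa5 and Pdia6, without 24 h library 3.

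In the whole list 27 of 33 members had a negative value, 11 lay wholly below and 0 wholly above, and the median was −0.17. At an unadjusted p under 0.05, 14 were lower and 0 higher, and DESeq2 called 5 lower. Creld2 (−0.67 ± 0.17, edgeR adjusted p = 0.104), a known target of the unfolded protein response, followed in p. The stress response factors Ddit3 (−0.19 ± 0.14) and Atf4 (−0.07 ± 0.11) overlapped between the groups. Most markers of striatal projection neurons, described further on, also had negative values. With the summed level of those shared by both pathways as a covariate, Hspa5 differed by −0.25, Pdia6 by −0.27 and Xbp1 by −0.41. None of these was called. The median of the list was then −0.19.

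The promoters of these genes often hold the endoplasmic reticulum stress element, to which ATF6 binds together with NF-Y. The letters CCAAT and CCACG with any 9 bases between them were searched on both strands in the 250 bases before the start of RefSeq promoters (GRCm38.p6), a search added after the values of the list had been seen. They were found in 9 of the 28 list members with a promoter entry (32.1%), against 18 of 12268 promoters of all tested genes (0.147%). The element is known from promoters of such genes, so this share describes the list and not the change with time. Windows of 4 carriers are shown because the split of the list below rests on such matches. They are written 5′ to 3′ on the plus strand, which is the strand of all 4 genes, with both ends of the element in capitals. In Creld2 the element lies on the other strand, so its ends read CGTGG and ATTGG. The windows are chr2:34772020-34772049 for Hspa5, chr12:17266486-17266515 for Pdia6, chr14:118937822-118937851 for Dnajc3 and chr15:88819515-88819544 for Creld2, and the elements begin 65, 98, 105 and 126 bases before the RefSeq start. For Hspa5 that start, at 34772090, lies 120 bases after the GENCODE start given above, so its window lies inside the GENCODE gene. The windows of the other 3 lie before the start in both annotations.
Hspa5: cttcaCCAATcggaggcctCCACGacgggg
Pdia6: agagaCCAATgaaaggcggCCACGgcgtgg
Dnajc3: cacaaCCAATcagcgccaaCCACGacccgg
Creld2: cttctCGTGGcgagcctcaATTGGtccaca

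The other carriers were Hsp90b1, Calr, Canx, Syvn1 and Derl3. All 9 carriers had a negative value, 6 lay wholly below and 2 were called, Hspa5 and Pdia6. Their values ran from −0.79 to −0.03 with a median of −0.27. Of the 19 members with a promoter entry and no complete element, 14 had a negative value, 4 lay wholly below and 1 was called, Xbp1, with a median of −0.10 and a range from −0.70 to 0.19. The remaining 5 had no promoter entry, and their median was −0.17. Dnajc3, a co-chaperone, measured 89.0, 103 and 83.2 CPM at 0.5 h and 75.4, 74.3 and 78.7 CPM at 24 h (−0.27 ± 0.09, edgeR adjusted p = 0.25). Canx, a membrane lectin chaperone, lay at the upper end of the carriers with −0.03 ± 0.06. A match describes letters only, and binding was not measured. Only the spacing of 9 bases was searched as a complete element. Some members counted without it held both CCAAT and CCACG at other spacings, so the split is by this 1 form of the element. A part of the element in the difference between these sets was not tested.

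**Figure D2:**
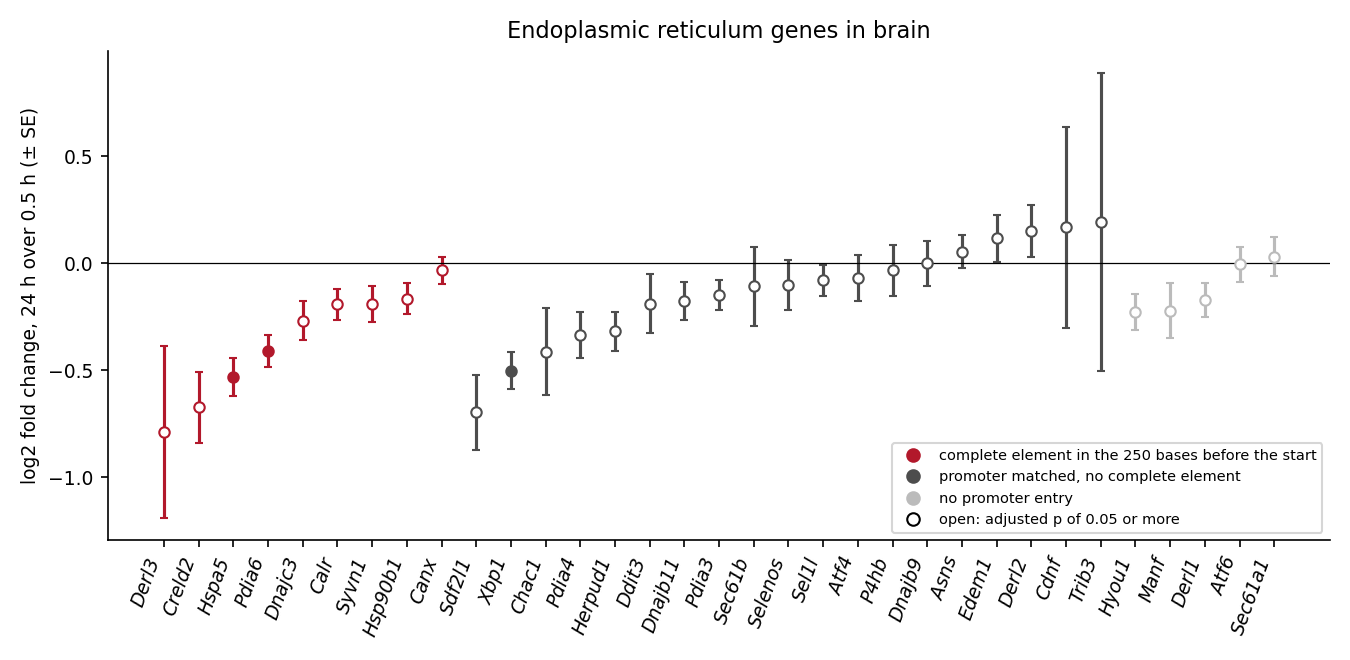
Log2 fold change of 24 h over 0.5 h (± SE) for the 33 tested endoplasmic reticulum genes, coloured by whether the 250 bases before the start hold the complete stress element (red with, dark without, light no promoter entry); open points have an adjusted p of 0.05 or more. The 9 genes with the element lie between −0.79 and −0.03, and the filled points are Hspa5, Pdia6 and Xbp1.

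Searched alone, and so overlapping with the complete element, CCAAT was found in 82.1% of the list's promoters and 35.7% of all, and CCACG in 67.9% and 40.1%. A promoter entry was found for 23 of the 24 genes that fell and 8 of the 16 that rose. Among the 23, the complete element was found in 2 (8.70%), CCAAT in 43.5% and CCACG in 47.8%. Among the 8, the complete element was found in 0, CCAAT in 2 (25%) and CCACG in 6 (75%). The forkhead letters GTAAACA were found in 1 of the 23 that fell, Txnip (4.35%, against 2.08% of all), and in 0 of the 8 that rose. The full CRE, TGACGTCA, was found in 1 gene that fell, Gpr6, and 1 that rose, Clk4, against 2.61% of all promoters.

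Txnip, Arrdc3 and Foxo1 fell among 28 tested genes of the thioredoxin, arrestin-domain and FoxO list, and 0 rose. Txnip (chr3:96557957-96561883) encodes an inhibitor of thioredoxin that also limits glucose uptake. It measured 46.4, 34.3 and 40.4 CPM in untreated brain, 27.1, 19.2 and 24.9 CPM at 0.5 h and 10.9, 11.8 and 13.7 CPM at 24 h. The 3 groups did not overlap: untreated was highest and 24 h lowest. The change from 0.5 h to 24 h was −0.97 ± 0.15 (n = 3 and 3, edgeR adjusted p = 0.00760). It was −0.86 without 0.5 h library 1, where the call ended (adjusted p = 0.0646), as it did without 24 h library 1 (0.0518). Txnip shares 606 exon bases with Gm15441 on the opposite strand.

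Arrdc3 (chr13:80883384-80896042), an arrestin-domain relative of Txnip, went from 71.6, 65.7 and 77.2 CPM to 43.2, 54.8 and 44.6 CPM (−0.59 ± 0.09, edgeR adjusted p = 0.00874). Untreated brain held 80.5, 83.8 and 83.3 CPM, above both. Foxo1 (chr3:52268336-52353221), a forkhead factor restrained by insulin signalling, went from 47.2, 38.2 and 37.3 CPM to 25.8, 29.0 and 23.1 CPM (−0.66 ± 0.12, edgeR adjusted p = 0.0200; untreated 37.2, 39.5 and 43.4 CPM). Here untreated and 0.5 h libraries overlapped and those of 24 h were lower. It shares 674 exon bases with Gm20402 on the opposite strand. Both calls ended without 0.5 h library 1 (adjusted p = 0.0624 for Arrdc3 and 0.139 for Foxo1), and that of Foxo1 also without 24 h library 1 or 3. Irs2, an insulin receptor substrate, was not called (−0.41 ± 0.09, edgeR adjusted p = 0.0540). In the list 20 of 28 were negative, 9 lay wholly below and 3 above, and the median was −0.16. With the striatal marker level as a covariate the value was −0.98 for Txnip, −0.43 for Arrdc3 and −0.17 for Foxo1.

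Arrdc3 is also 1 of 25 tested genes of the glucocorticoid-induced list, and the only one called by edgeR. Sgk1, a kinase induced by corticosteroids, measured 104, 90.8 and 142 CPM at 0.5 h and 55.3, 61.0 and 67.9 CPM at 24 h, with 176, 157 and 173 CPM in untreated brain (−0.87 ± 0.15, edgeR adjusted p = 0.0597). Tsc22d3, which encodes GILZ, gave −0.39 ± 0.08 (0.0610). Cdkn1a, a cell cycle inhibitor also on the p53 list, gave −0.95 ± 0.20 (0.0610), with 18.4, 17.2 and 17.7 CPM at 0.5 h and 11.1, 9.05 and 7.49 CPM at 24 h. Of the list 20 were negative and 11 lay wholly below, the median was −0.24, and DESeq2 called 5 lower. The summed level was 1471, 1286 and 1341 CPM in untreated brain, 1044, 1023 and 1129 CPM at 0.5 h and 854, 860.1 and 881 CPM at 24 h, so the groups followed each other without overlap.

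Gpr6 (chr10:41069977-41072285), an orphan receptor of striatal neurons of the indirect pathway, fell. It measured 16.4, 8.27 and 10.6 CPM at 0.5 h and 3.15, 3.20 and 2.77 CPM at 24 h, with 7.76, 9.52 and 8.09 CPM in untreated brain. The 3 libraries of 24 h were close to each other and below all 6 others. The change was −1.95 ± 0.24 (n = 3 and 3, edgeR adjusted p = 0.000801), and −1.63 without 0.5 h library 1, which had the highest level (adjusted p = 0.00584). Its relatives Gpr3 (0.21 ± 0.23) and Gpr12 (0.01 ± 0.15) overlapped between the groups.

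Most other markers of striatal projection neurons had negative values too, and edgeR called none of them. Of 6 indirect-pathway markers, Gpr6 included, 6 were negative and 5 lay wholly below, with a median of −1.39. Of 6 direct-pathway markers, 4 were negative and 3 lay wholly below (median −0.90), and of 10 markers that both neuron types share, 10 were negative and 9 lay wholly below (median −1.24). At an unadjusted p under 0.05, 6, 3 and 9 members of the 3 lists were lower and 0 higher. DESeq2 called 1, 2 and 9 of them lower, and limma-voom 2, 0 and 7. In bulk tissue, fewer cells of a type, less RNA per cell and a different piece of tissue cannot be told apart.

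Drd2, the dopamine receptor of the indirect pathway, measured 51.6, 30.3 and 26.99 CPM at 0.5 h and 9.39, 22.0 and 5.27 CPM at 24 h (−1.57 ± 0.51, edgeR adjusted p = 0.312). Untreated libraries were close to each other, with 33.5, 33.3 and 36.1 CPM. Adora2a, the adenosine receptor of the same neurons, measured 90.1, 62.1 and 50.5 CPM and 15.6, 37.2 and 9.43 CPM (−1.70 ± 0.50, edgeR adjusted p = 0.271). Penk, their enkephalin precursor, gave −1.21 ± 0.39 (0.310), Gpr52 −0.99 ± 0.33 and the transcription factor gene Sp9 −0.76 ± 0.26. Within 24 h, library 3 was lowest and library 2 highest for Drd2, Adora2a and Penk. For the direct pathway, Drd1 measured 65.7, 47.0 and 35.2 CPM and 26.1, 33.1 and 13.1 CPM (−1.03 ± 0.37, edgeR adjusted p = 0.347). Tac1, the substance P precursor, gave −1.03 ± 0.27 and Pdyn, the dynorphin precursor, −0.78 ± 0.23. Chrm4 (0.12 ± 0.15) and Eya1 (0.19 ± 0.18) of the same list had positive values.

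Rxrg, a retinoid receptor, was closest to the threshold among the shared markers, with 31.9, 23.3 and 18.0 CPM at 0.5 h and 10.3, 12.7 and 6.86 CPM at 24 h (−1.30 ± 0.23, edgeR adjusted p = 0.0556). Rarb, another retinoid receptor, gave −1.30 ± 0.31, the sodium channel subunit Scn4b −1.15 ± 0.24 and the G protein subunit Gng7 −0.89 ± 0.22. The summed level of the 10 shared markers was 2054, 2054 and 2211 CPM in untreated brain, 2767, 1913 and 1649 CPM at 0.5 h and 963, 1249 and 655 CPM at 24 h. Here the untreated libraries were alike, 0.5 h library 1 was highest of the 9, and the 24 h libraries were lowest. Leaving out 1 library at a time gave medians between −1.84 and −1.07 for the indirect list, −1.08 and −0.57 for the direct list and −1.55 and −0.95 for the shared list. Without 0.5 h library 1 they were −1.07, −0.57 and −0.95.

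**Figure D3:**
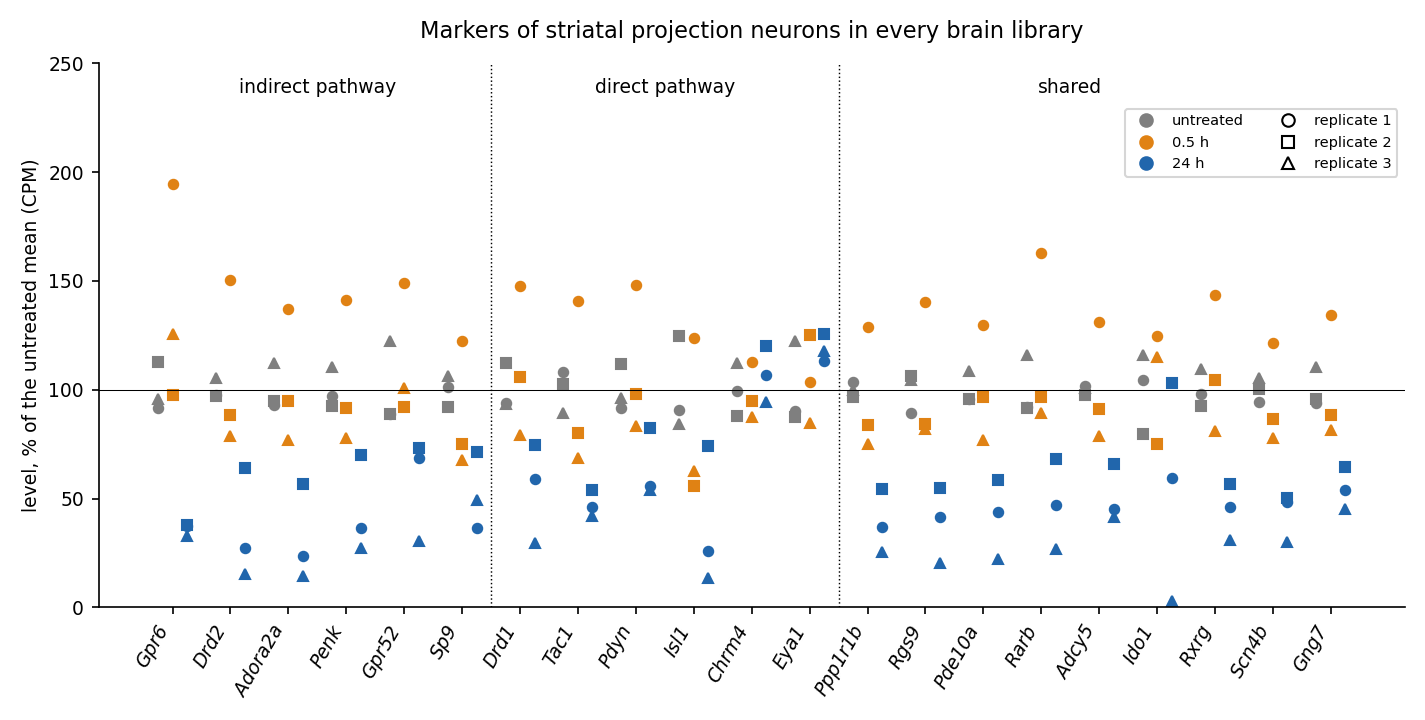
Level of 21 striatal projection neuron markers in every brain library, as percent of the mean of the 3 untreated libraries (grey untreated, orange 0.5 h, blue 24 h; marker shapes are replicate numbers). All 3 blue points lie below the orange ones for every gene except Sp9, Isl1, Chrm4, Eya1 and Ido1.

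Markers of other brain regions and cell types were compared in the same way. The 12 cortical projection neuron markers had a median of 0.14, the 9 tested hippocampal ones 0.27, the 10 thalamic ones 0.02 and the 9 tested cerebellar ones 0.06. edgeR, DESeq2 and limma-voom called 0 in these lists, with 2, 1, 1 and 0 members higher and 1, 0, 0 and 0 lower at an unadjusted p under 0.05. With 1 library left out the cortical median ran from 0.03 to 0.29, lowest without 24 h library 1 and highest without 24 h library 2. The hippocampal one ran from 0.00 to 0.55, lowest without 24 h library 2 (0.01 without 0.5 h library 1) and highest without 0.5 h library 3. The thalamic one ran from −0.27 to 0.37 and the cerebellar one from 0.00 to 0.19, both highest without 0.5 h library 3. They were lowest without 24 h library 2 (thalamic) and 0.5 h library 1 (cerebellar). The sign of the thalamic median thus turned with 1 library. In the cerebellar list Gabra6 and Pcp2 fell below the count filter. Calb1 alone had means of 139 CPM at 0.5 h and 140 CPM at 24 h. The list summed to 189, 202 and 210 CPM at 0.5 h and 206, 214 and 197 CPM at 24 h. Whether the tissue held cerebellum was not tested. Midbrain and hindbrain markers had a median of −0.86, and all 6 tested of 12 had a negative value. Hoxa2, Hoxb2, Hoxb3, Hoxb5, Slc6a4 and Slc6a5 of this list fell below the count filter. Chat, the acetylcholine synthesis enzyme (−1.26 ± 0.43, edgeR adjusted p = 0.276), was first in p and overlapped between the groups. With the striatal marker level as a covariate its value was 0.55. Whether Chat came from midbrain, hindbrain or another region was not tested. edgeR, DESeq2 and limma-voom called 0 of the 6, with 1 lower and 0 higher at an unadjusted p under 0.05. Their sum was 42.3, 32.5 and 86.2 CPM at 0.5 h and 27.4, 34.8 and 31.1 CPM at 24 h, highest in 0.5 h library 3, and the median was −0.27 without that library. Neuron markers as a whole had a median of −0.04. Gad2 (−0.43 ± 0.12), Tubb3 (−0.28 ± 0.09), Gad1 (−0.19 ± 0.07) and Slc32a1 (−0.58 ± 0.18) were first in p, and all but Tubb3 mark GABA neurons. Hypothalamic markers had a median of −1.30 over 11 genes, which was −0.14 without 0.5 h library 1. Their summed level was 94.1 CPM in that library and 12.3 to 48.3 CPM in the other 8. The first of them in p, Nkx2-1 (−1.79 ± 0.59), Hdc (−0.95 ± 0.43) and Gal (−1.55 ± 0.69), overlapped between the groups.

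All 21 oligodendrocyte and myelin markers had a negative value (50.6% over all tested genes), and the median was −0.32. Of the 21, 2 lay wholly below (8.84% over all tested genes). edgeR and limma-voom called 0 of them and DESeq2 called 1, with 3 lower at an unadjusted p under 0.05. Olig2, the lineage transcription factor, measured 37.0, 31.8 and 40.9 CPM at 0.5 h and 18.4, 25.4 and 27.04 CPM at 24 h (−0.63 ± 0.14, edgeR adjusted p = 0.0687). The summed level was 5735, 7377 and 8299 CPM at 0.5 h and 4794, 7047 and 5722 CPM at 24 h, which overlap, and the median was −0.16 without 24 h library 1. Of 16 microglia markers 13 were negative and 5 lay wholly below (median −0.14), with Tmem119 (−0.56 ± 0.13, edgeR adjusted p = 0.0847), C1qa (−0.41 ± 0.12), Olfml3 (−0.41 ± 0.13) and C1qb (−0.39 ± 0.13) first in p. Their sums were 380.4, 409.8 and 410.2 CPM against 357, 349 and 355 CPM, without overlap. Astrocyte markers had a median of −0.08.

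**Figure D4:**
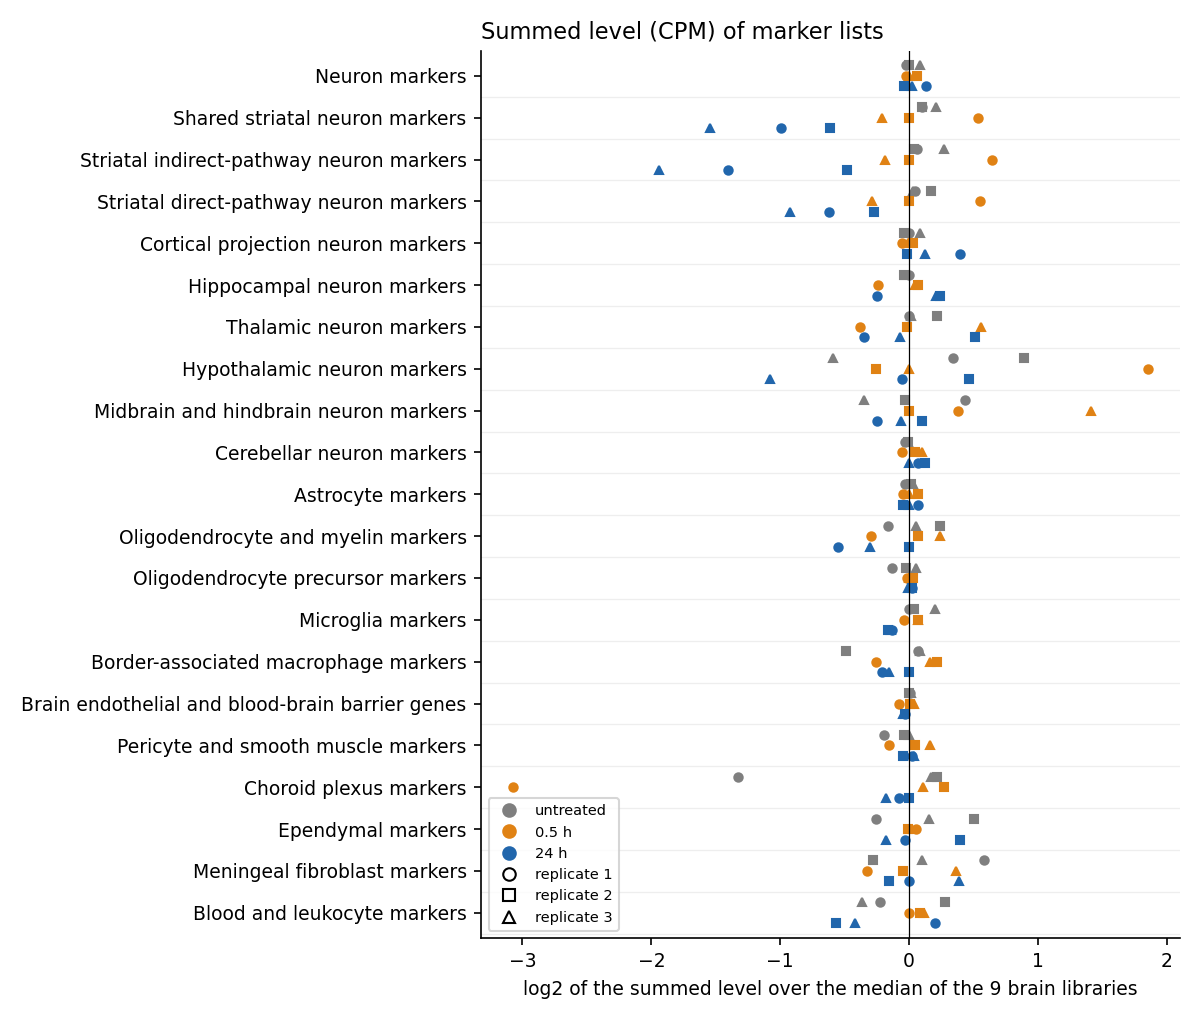
Summed CPM of each marker list in the 9 brain libraries, as log2 over their median (grey untreated, orange 0.5 h, blue 24 h; shapes are replicate numbers). The shared striatal list summed to 655 to 1249 CPM at 24 h against 1649 CPM or more in the other 6 libraries, and 0.5 h library 1 stands apart for hypothalamic and choroid plexus markers.

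A fit with the summed shared striatal level as a covariate was added after these values had been seen. It called 0 of 18172 genes (edgeR; 484 higher and 534 lower at an unadjusted p under 0.05), and all 40 genes kept their sign. The marker level and the time group cannot be told apart in this design. Of the 16 genes that rose, 15 kept at least 0.67 of their log2 fold change, among them Rbm3 (0.93) and Clk1 (0.79). Of the 24 that fell, 14 kept that much, among them Txnip (−0.98), Hmgb2 (−1.77) and Cysltr2 (−3.14). The 10 that kept less were Foxo1 (−0.17), Tgfa (−0.25), Hspa5 (−0.25), Pdia6 (−0.27), Ryr1 (−0.30), Zdhhc14 (−0.31), Lingo3 (−0.36), Inf2 (−0.39), Gpr6 (−1.21) and Clec12a (−2.17).

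Several genes that fell encode proteins of neuronal signalling and structure. Inf2 (chr12:112588784-112615557), a formin that builds and severs actin filaments, measured 269, 223 and 199 CPM at 0.5 h and 134, 142 and 128 CPM at 24 h, with 233, 237 and 232 CPM in untreated brain (−0.77 ± 0.09, n = 3 and 3, edgeR adjusted p = 0.000561). Untreated libraries lay inside the range of 0.5 h, and 24 h was below both. Dlgap3 (chr4:127169204-127237022), a postsynaptic scaffold, went from 372, 353 and 335 CPM to 235, 269 and 263 CPM (−0.47 ± 0.07, edgeR adjusted p = 0.00628; untreated 366, 343 and 365 CPM). Rap1gap (chr4:137664726-137729861), which switches off the GTPase Rap1, went from 320.2, 260.3 and 296 CPM to 193, 223 and 220.4 CPM (−0.46 ± 0.08, edgeR adjusted p = 0.0188; untreated 285, 305 and 275 CPM). Ryr1 (chr7:29003344-29125179), a calcium release channel, went from 55.4, 46.7 and 42.7 CPM to 29.7, 32.9 and 30.02 CPM (−0.65 ± 0.10, edgeR adjusted p = 0.00874; untreated 45.5, 47.1 and 49.8 CPM). In all 4 the untreated libraries overlapped those of 0.5 h.

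Ryr1 shares 864 exon bases with Gm26604 on the opposite strand. Without 0.5 h library 1 the calls of Dlgap3 (−0.42, edgeR adjusted p = 0.0646), Rap1gap (−0.39, 0.129) and Ryr1 (−0.53, 0.0790) ended, and that of Inf2 did not (−0.64, 0.00272). Rap1gap also lost it without 0.5 h library 3 or 24 h library 1. Lingo3, a membrane protein related to Lingo1 of the Nogo receptor complex, fell by 0.85 ± 0.15 (edgeR adjusted p = 0.0304), from 53.7, 33.8 and 35.1 CPM to 20.8, 24.2 and 23.2 CPM. The call ended without 0.5 h library 1, its highest library (−0.60, 0.0682), and without 5 others of the 9. It was the only one called of 14 in the Nogo receptor list, whose median was −0.07. With GC content and length corrected, Dlgap3 (−0.28, 0.0734) and Lingo3 (−0.70, 0.0548) were not called.

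Tgfa (chr6:86195223-86275719), a ligand of the epidermal growth factor receptor, measured 63.5, 56.3 and 49.3 CPM at 0.5 h and 31.5, 38.0 and 27.8 CPM at 24 h, with 48.6, 51.1 and 54.3 CPM in untreated brain (−0.80 ± 0.12, n = 3 and 3, edgeR adjusted p = 0.00509). It shares 118 exon bases with Gm43917 on the opposite strand. Kazn (chr4:142102390-142239401), which encodes the junction protein kazrin, went from 129, 117 and 126 CPM to 87.2, 99.7 and 95.5 CPM (−0.40 ± 0.07, edgeR adjusted p = 0.0223; untreated 126, 128 and 127 CPM). Zdhhc14 (chr17:5492557-5753811), a palmitoyltransferase, went from 59.3, 53.9 and 52.8 CPM to 35.3, 42.4 and 38.5 CPM (−0.51 ± 0.09, edgeR adjusted p = 0.0240; untreated 55.3, 48.6 and 54.6 CPM). In these 3 the untreated and 0.5 h libraries overlapped. Znrf1, a ubiquitin ligase, fell by 0.38 ± 0.07 (edgeR adjusted p = 0.0325) and shares 2246 exon bases with Ldhd on the opposite strand. All 4 calls ended without 0.5 h library 1 (adjusted p = 0.0534 for Tgfa, 0.141 for Kazn, 0.154 for Zdhhc14 and 0.186 for Znrf1), and those of Kazn, Zdhhc14 and Znrf1 without 3, 3 and 6 other libraries.

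Slco1a4 (chr6:141805440-141856199), an organic anion transporter of brain capillary endothelium, rose from 47.0, 54.5 and 49.8 CPM to 78.4, 76.9 and 70.1 CPM (0.58 ± 0.08, n = 3 and 3, edgeR adjusted p = 0.00509; untreated 48.9, 51.0 and 52.9 CPM). Col4a2 (chr8:11312805-11449287), a collagen of basement membranes, fell from 106, 104 and 102 CPM to 71.9, 77.5 and 79.5 CPM (−0.45 ± 0.07, edgeR adjusted p = 0.0124; untreated 112, 98.7 and 108 CPM). F3, tissue factor, which starts coagulation, fell by 0.53 ± 0.11 (edgeR adjusted p = 0.0495), from 39.6, 39.7 and 47.4 CPM to 26.5, 27.9 and 33.2 CPM. Slco1a4 was the only one called of 26 endothelial and barrier genes, which had a median of −0.07 and summed to 1343, 1427 and 1458 CPM at 0.5 h and 1387, 1386 and 1377 CPM at 24 h. Cldn5 (−0.49 ± 0.14), a tight junction protein, Slc7a5 (−0.36 ± 0.11) and Tfrc (0.27 ± 0.09) were next in that list. Without 0.5 h library 1 the 3 calls ended (edgeR adjusted p = 0.0534 for Slco1a4, 0.0817 for Col4a2 and 0.0979 for F3). Col4a2 lost it also without 0.5 h library 2, and F3 in 8 of the 9 fits that left out a library.

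Cysltr2 and Clec12a fell furthest, from levels near 1 CPM. Cysltr2 (chr14:73025603-73049114), a receptor for cysteinyl leukotrienes, had 22, 29 and 28 raw counts at 0.5 h and 5, 3 and 3 at 24 h. The ratio of its level at 24 h to that at 0.5 h, from summed counts, was 0.145 (95% exact interval 0.0696 to 0.274, which covers counting error only). It went from 1.44, 1.93 and 1.91 CPM to 0.343, 0.204 and 0.208 CPM, beside 1.32, 1.18 and 1.27 CPM in untreated brain (−2.77 ± 0.50, n = 3 and 3, edgeR adjusted p = 0.0200). Every 24 h library was below the other 6. Its relative Cysltr1 gave −0.04 ± 0.62, and of 23 tested prostaglandin and leukotriene genes Cysltr2 was the only one called, followed in p by Gpr17 (−0.30 ± 0.12) and Ptger4 (1.18 ± 0.50).

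Clec12a (chr6:129342691-129365303), an inhibitory lectin receptor of myeloid cells, had 30, 16 and 17 raw counts at 0.5 h and 2, 2 and 1 at 24 h, a ratio of 0.0827 (95% exact interval 0.0259 to 0.203). Its level was 1.97, 1.07 and 1.16 CPM at 0.5 h, 0.137, 0.136 and 0.0693 CPM at 24 h and 1.06, 0.722 and 1.40 CPM in untreated brain (−3.53 ± 0.64, n = 3 and 3, edgeR adjusted p = 0.0223). Skull, which holds marrow, had a mean of 114 CPM at 0.5 h and 96.6 CPM at 24 h. Of the 13 blood and leukocyte markers 6 were tested, with a median of −0.23 (−0.39 to −0.10 with 1 library left out) and sums of 46.0, 48.9 and 49.7 CPM at 0.5 h and 53.001, 31.0 and 34.4 CPM at 24 h, which overlap. Of 7 border-associated macrophage markers 5 were tested, 4 negative and 1 positive. Their median was −0.28 (−0.42 to −0.12 with 1 library left out), and edgeR, DESeq2 and limma-voom called 0 of them. The part of blood, marrow or brain macrophage cells in the change of Clec12a was not tested. Both calls ended without 0.5 h library 1 (edgeR adjusted p = 0.152 for Clec12a and 0.0682 for Cysltr2). Clec12a lost it also without 24 h library 1 or 3, and Cysltr2 without each of the 6 libraries compared.

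Hmgb2 (chr8:57511907-57515999), a chromatin protein abundant in dividing cells, measured 13.7, 8.21 and 11.8 CPM in untreated brain, 5.05, 4.13 and 6.41 CPM at 0.5 h and 2.06, 1.56 and 1.80 CPM at 24 h. The 3 groups did not overlap. The change from 0.5 h to 24 h was −1.52 ± 0.27 (n = 3 and 3, edgeR adjusted p = 0.0187), and the call ended without 0.5 h library 1 (−1.53, 0.0682), 0.5 h library 3 or 24 h library 3. Hmgb1 gave 0.18 ± 0.10, and the 12 tested high mobility group genes had a median of −0.03. Of 33 genes of DNA replication and mitosis, edgeR, DESeq2 and limma-voom called 0, with 1 higher and 3 lower at an unadjusted p under 0.05. Their median was 0.04, with Cdk1 (−2.27 ± 0.84), Mcm5 (−0.65 ± 0.26), Cenpe (1.02 ± 0.42) and Mcm2 (−0.57 ± 0.26) first in p.

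Genes of energy metabolism and of transcription by RNA polymerase III were also among those called. Ndufa12 (chr10:94198720-94221443), a subunit of respiratory complex I, fell from 34.3, 38.2 and 43.2 CPM to 25.6, 21.8 and 19.1 CPM (−0.80 ± 0.14, n = 3 and 3, edgeR adjusted p = 0.0200; untreated 40.9, 42.2 and 30.3 CPM). Pfkfb3, which makes an activator of the glycolytic enzyme phosphofructokinase, fell by 0.44 ± 0.08 (edgeR adjusted p = 0.0240), from 52.2, 53.5 and 55.6 CPM to 40.4, 38.4 and 40.3 CPM. Polr3e, a subunit of the polymerase, fell by 0.46 ± 0.08 (edgeR adjusted p = 0.0240). Its 3 groups did not overlap, with 75.9, 74.8 and 79.9 CPM untreated, 52.6, 54.3 and 59.9 CPM at 0.5 h and 38.1, 40.6 and 42.9 CPM at 24 h. These calls ended without 0.5 h library 1 (edgeR adjusted p = 0.0534 for Ndufa12, 0.0875 for Pfkfb3 and 0.0682 for Polr3e) and without 4, 5 and 4 further libraries.

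Of the 77 tested nuclear genes of oxidative phosphorylation, 1 fell (Ndufa12), 66 had a negative value, 32 lay wholly below and 3 above, and the median was −0.21. At an unadjusted p under 0.05, 26 were lower and 1 higher, and DESeq2 called 2 lower. Ndufa5 (−0.52 ± 0.11, edgeR adjusted p = 0.0610), Cox5b (−0.36 ± 0.10) and Cyc1 (−0.25 ± 0.08) were next. The sum was 6071, 6076 and 6428 CPM at 0.5 h and 5066, 5779 and 5999 CPM at 24 h. The 13 tested mitochondrially encoded genes had a median of 0.02, with mt-Rnr2, the large ribosomal RNA, at −0.26 ± 0.06 (edgeR adjusted p = 0.0847). Their sum was 34348, 34039 and 33911 CPM at 0.5 h and 41181, 31268 and 30273 CPM at 24 h. Thus 24 h library 1 lay above the 0.5 h libraries, and 24 h libraries 2 and 3 lay below them. With 1 library left out this median ran from −0.11 to 0.11. Of 78 cytosolic ribosomal protein genes, 62 were negative and 22 lay wholly below (median −0.20). edgeR, DESeq2 and limma-voom called 0 of them, with 7 lower and 2 higher at an unadjusted p under 0.05. Rpl29 (−0.34 ± 0.10), Rpl11 (−0.30 ± 0.10) and Rps16 (−0.88 ± 0.31) were first in p. With 1 library left out the medians ran from −0.28 to −0.10 for oxidative phosphorylation and −0.29 to −0.11 for ribosomal proteins, the values nearest 0 being those without 24 h library 1. In both lists that library had the lowest sum of the 9, 5066 and 3140 CPM.

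The zinc finger genes Zkscan3, Zfp655 and Zkscan2 rose. Zkscan3, known as a repressor of autophagy genes, measured 92.2, 101 and 84.9 CPM at 0.5 h and 137, 120.2 and 119.6 CPM at 24 h, with 70.7, 73.8 and 77.2 CPM in untreated brain, so that its 3 groups did not overlap (0.44 ± 0.08, n = 3 and 3, edgeR adjusted p = 0.0240). Zfp655 rose by 0.53 ± 0.10 (edgeR adjusted p = 0.0240) and Zkscan2 by 0.42 ± 0.08 (0.0343). Of 436 tested genes with a symbol of this kind, 3 rose and 0 fell, 80 lay wholly above and 21 wholly below, and the median was 0.09. Mex3b (chr7:82867333-82871515), an RNA-binding protein, rose from 12.8, 12.5 and 9.54 CPM to 20.6, 17.3 and 19.6 CPM (0.72 ± 0.15, edgeR adjusted p = 0.0487; untreated 13.7, 12.5 and 13.2 CPM). Nwd2 (chr5:63649102-63810546), a protein with NACHT and WD repeat domains, rose from 52.6, 53.3 and 54.9 CPM to 89.7, 86.6 and 73.1 CPM (0.63 ± 0.10, edgeR adjusted p = 0.00760; untreated 52.4, 43.0 and 54.7 CPM). It shares 1219 exon bases with Gm9954 on the opposite strand. Without 0.5 h library 1 none of these was called (edgeR adjusted p = 0.105 for Zkscan3, 0.105 for Zfp655, 0.152 for Zkscan2, 0.0935 for Mex3b and 0.0624 for Nwd2), and all but Nwd2 lost the call without 2 or more other libraries.

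The 7 called genes without an established symbol all rose, and 4 of them are of the annotated type TEC, transcripts still to be experimentally tested. A330023F24Rik (chr1:194976375-195037904), the host transcript of Mir29b-2 and Mir29c, rose by 0.73 ± 0.09 (edgeR adjusted p = 0.000573), from 71.1, 66.9 and 59.2 CPM to 118, 109.7 and 99.2 CPM. It shares 1079 exon bases with Cd46 on the opposite strand. Gm43980 rose by 1.30 ± 0.17 (edgeR adjusted p = 0.00118) and Gm42979 by 1.28 ± 0.20 (0.00862). Over the 14347 tested protein-coding genes the median was −0.01, with 9 higher and 24 lower, and over the 3062 of other types it was 0.09, with 7 higher and 0 lower. Values also followed base composition: the median was 0.08 in the fifth of genes lowest in GC and −0.10 in the fifth highest. After a correction for GC content and length, added after this was seen, 60 genes were called, 38 of the 40 among them.

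The 8 genes next in p that edgeR did not call were Rgs10 (−0.70 ± 0.14, adjusted p = 0.0519), Sik2 (−0.49 ± 0.10, 0.0519), Git1 (−0.34 ± 0.07, 0.0540), Irs2, Rxrg, Pbx3 (−0.96 ± 0.19, 0.0556), Sgk1 and Crybg3 (−0.58 ± 0.12, 0.0597). All 8 had a negative value, and in each the 24 h libraries lay wholly below those of 0.5 h.

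Untreated brain gives each change a reference, and both comparisons with it share libraries with the one above. At 0.5 h against untreated, 0.00550% of tested genes were called, and at 24 h against untreated 2.62%, or 477 genes. That count was 153 without untreated library 1, 228 without untreated library 2, 229 without 24 h library 1 and 301 without 0.5 h library 2. Txnip differed from untreated by −0.77 ± 0.14 (0.159) at 0.5 h and by −1.74 ± 0.15 (1.54e-05) at 24 h, with edgeR adjusted p in brackets. Hmgb2 gave −1.12 ± 0.23 (0.327) and −2.64 ± 0.26 (2.46e-05), and Polr3e −0.47 ± 0.08 (0.140) and −0.92 ± 0.08 (1.83e-05). For these 3 the value at 0.5 h had the sign of the later one and was not called. Rbm3 gave −0.19 ± 0.11 (0.969) at 0.5 h and 0.77 ± 0.11 (0.00130) at 24 h, and Clk1 0.11 ± 0.08 (0.982) and 0.81 ± 0.08 (2.46e-05). Inf2 gave −0.02 ± 0.09 (0.997) and −0.80 ± 0.09 (0.000118), and Hspa5 −0.20 ± 0.09 (0.937) and −0.73 ± 0.09 (0.00028). Gpr6, whose 0.5 h library 1 was high, gave 0.48 ± 0.22 (0.938) and −1.47 ± 0.24 (0.00401). Of the 40 genes 38 were called at 24 h against untreated as well, and the other 2 were Mex3b (0.54 ± 0.14 (0.0518)) and Gm28192 (0.56 ± 0.31 (0.351)).

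The same interval was measured in meninges and skull, and the difference of the change between tissues was tested in a fit of all 27 libraries. For brain alone that fit called 50 genes, 17 of the 40 among them. The change differed between brain and meninges in 0.400% of 21500 tested genes (86) and between brain and skull in 5.98% (1285). Without 1 library the first count fell to 36 (24 h meninges library 2), 40 (24 h brain library 1), 43 and 44 (0.5 h brain libraries 1 and 3), 52 and 54 (0.5 h meninges libraries 2 and 1) and 54 (0.5 h brain library 2). The second fell to 752 and 753 (24 h skull libraries 3 and 1), 822 (24 h brain library 1) and 827 (0.5 h brain library 1). Of the 33 named genes, 32 had at least 1 CPM in meninges, and 3 of these differed: Polr3e (brain minus meninges −0.74 ± 0.10, edgeR adjusted p = 0.00105), Inf2 (−1.07 ± 0.14, 0.000875) and Clec12a (−3.82 ± 0.65, 0.00965). In skull 29 reached that level and 12 differed. The named genes were picked by their change in the same brain libraries, which favours a difference. These counts are therefore not comparable with the shares of all genes. The change of Inf2 was −0.77, 0.31 and 0.58 in brain, meninges and skull (brain minus skull −1.35 ± 0.14, edgeR adjusted p = 4.69e-06). Clk1 gave 0.71, 0.21 and −0.09, with brain above skull by 0.80 ± 0.15 (0.00290), and Clk4 gave 0.58, 0.17 and −0.15, with brain above skull by 0.73 ± 0.12 (0.000974). Their differences from meninges did not pass: 0.49 ± 0.15 (0.180) for Clk1 and 0.41 ± 0.12 (0.163) for Clk4.

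Rbm3 had values of 0.96, 1.07 and 0.89 in brain, meninges and skull (brain minus meninges −0.11 ± 0.21, brain minus skull 0.07 ± 0.21). Txnip gave −0.97, −0.94 and −1.11 (differences −0.03 ± 0.17 and 0.14 ± 0.18), and Arrdc3 gave −0.58, −0.77 and −0.59 (0.18 ± 0.18 and 0.01 ± 0.18). None of these differences passed the test, which does not show that the tissues changed alike. Hspa5 gave −0.53, −0.60 and −0.24 (0.08 ± 0.23 and −0.29 ± 0.23), and its differences did not pass either. Pdia6 (brain minus skull −0.86 ± 0.17, edgeR adjusted p = 0.00449) and Xbp1 (−0.55 ± 0.13, 0.0143) differed from skull. Levels differed widely: at 0.5 h the mean of Txnip was 23.6 CPM in brain, 635 CPM in meninges and 504 CPM in skull.

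**Figure D5:**
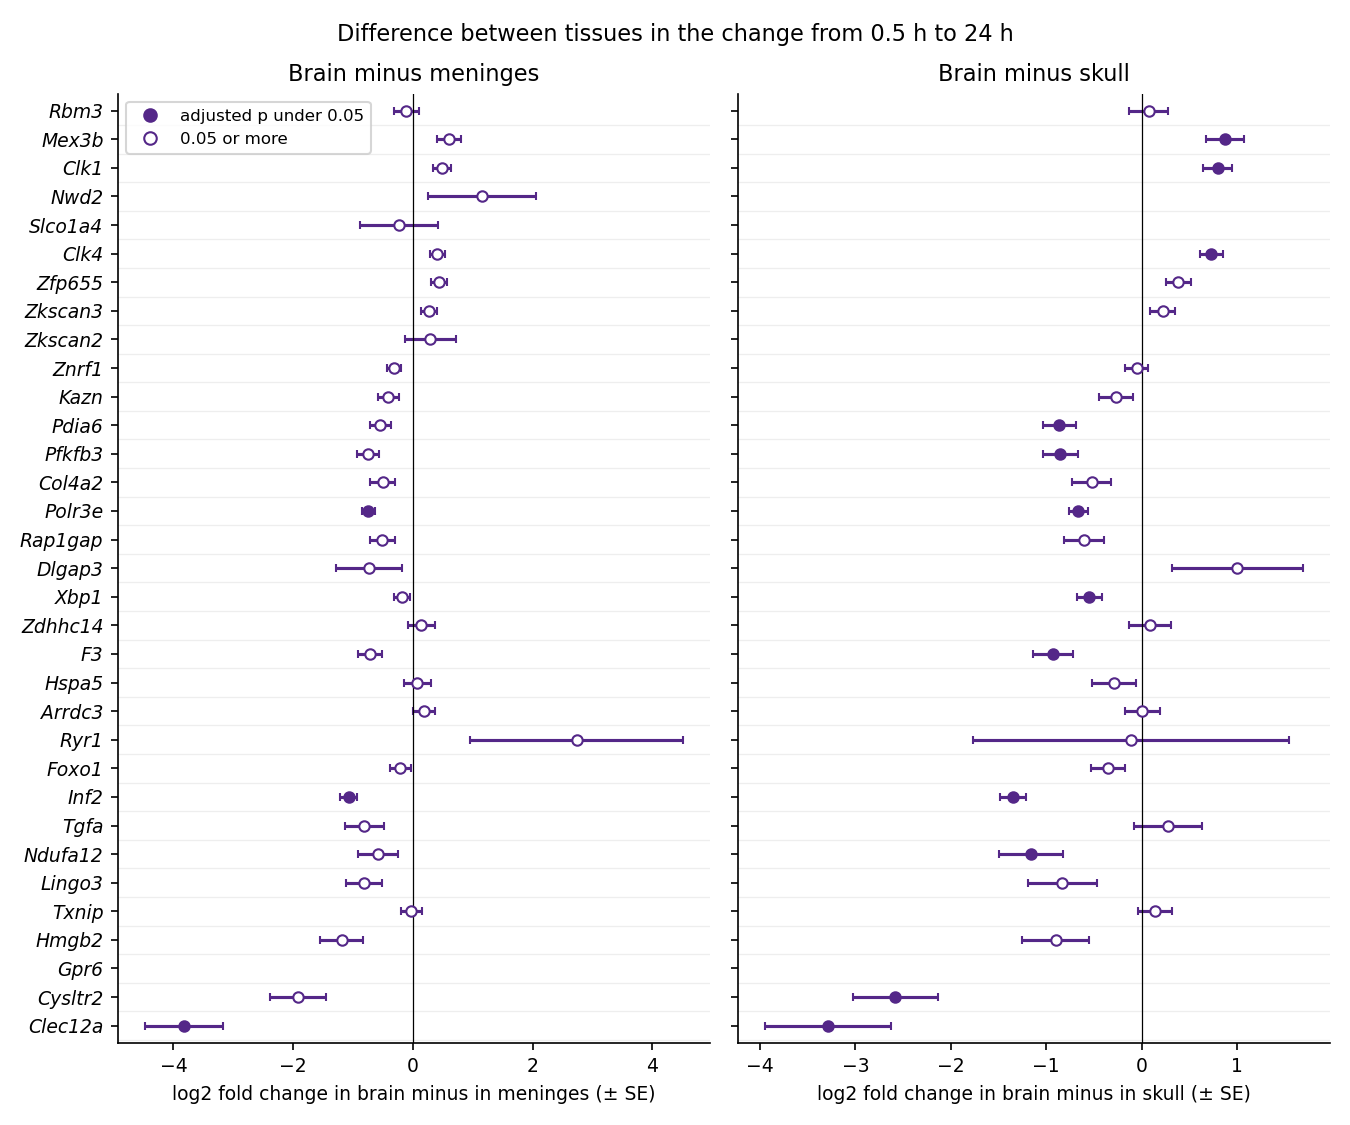
Difference between tissues in the log2 change from 0.5 h to 24 h (± SE), brain minus meninges and brain minus skull, for the called genes with at least 1 CPM in that tissue; filled points have an adjusted p under 0.05. Filled are 3 genes against meninges and 12 against skull, and Rbm3, Arrdc3 and Txnip are open in both.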

How the data were processed

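Bulk poly(A) RNA of 27 mouse libraries was measured, and the 9 of brain were fitted together. The deposited table gives raw counts per gene symbol that the authors made from reads aligned to mm10 with HISAT2 2.1.0, per the submitters' processing notes. The counter, its annotation and its use of strand were not found in the labels or the table's header. Genes were filtered with filterByExpr (minimum count 10, minimum total 15), scaled by TMM and tested with edgeR 4.0.16 (quasi-likelihood F test, R 4.3.3) at a Benjamini-Hochberg adjusted p of 0.05. Differences between tissues came from a fit of all 27 libraries. DESeq2 1.42.0, limma-voom (limma 3.58.1), other scalings, no filter, a replicate block and leaving out each library were alternatives. The edgeR procedure was tested on simulated data. Errors are standard errors of the log2 fold change. Gene positions are from GENCODE M21 (GRCm38), matched by symbol for 90.1% of the table, and promoters from RefSeq (GRCm38.p6).

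Named are all called genes with an established symbol, the 8 next in p, up to 4 members per list with the smallest unadjusted p under 0.05, and the 5 highest and 5 lowest differences per tissue with at least 1 CPM in brain. A few genes that this rule names are not reported here. Some relatives (Cirbp, Clk3, Ddit3, Atf4, Dnajc3, Canx, Gpr3, Gpr12, Chrm4, Eya1, Drd2, Penk, Drd1, Cysltr1, Hmgb1) and genes without an established symbol were chosen after their values were seen. The comparison and the gene lists were chosen with earlier results of these data known.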

Additional observations from a re-analysis of the deposited data

Results flagged for a closer look

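The change from 0.5 h to 24 h differed between brain and another tissue by the test of the difference itself for 86 genes against meninges and 1285 against skull. Among the called brain genes, the differences from meninges were −0.74 for Polr3e, −1.07 for Inf2 and −3.82 for Clec12a, and those from skull were −0.93 for F3, 0.80 for Clk1, 0.73 for Clk4, −0.66 for Polr3e, −0.86 for Pdia6, 0.88 for Mex3b, −1.35 for Inf2, −3.29 for Clec12a, −0.55 for Xbp1, −0.85 for Pfkfb3, −2.58 for Cysltr2 and −1.16 for Ndufa12.

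The lowest and highest differences from meninges reported here included genes with changes of opposite sign in the 2 tissues. Chil1, a chitinase-like protein, gave −3.13 (brain −0.17, meninges 2.96). Clspn gave −2.95 (brain −1.32, meninges 1.63), Apln −2.30 and Mcm5 −2.28. High ones were those of Aanat, an enzyme of melatonin synthesis, with 3.46 (brain 0.43, meninges −3.03), Pi16 with 2.26, Zbtb16 with 2.03, Galnt9 with 1.66 and Islr2 with 1.66.

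Against skull, low differences were those of Prg4, a joint lubricant, with −6.87 (brain 0.84, skull 7.70), Crabp1 with −5.29, Serpina3n with −4.27 and Slc10a4 with −3.31. High ones were those of Mgat4c with 5.64, Pantr2 with 4.67, Pcdha9 with 4.54 and Hs6st3 with 4.08. In skull all 24 h libraries were at 0 for Mgat4c, Pantr2 and Pcdha9, so these 3 fitted values depend on the prior count and give no size.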

How the results depend on the processing

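All 40 genes kept their direction under each alternative run, and the count of calls was 40 with RLE scaling and 40 with scaling without haemoglobin and mitochondrial genes. It was 438 with no filter, 228 with DESeq2, 25 with the 2 groups alone and 0 with the striatal covariate (1018 at an unadjusted p under 0.05, edgeR), and between 7 and 91 when 1 library was left out. Of the 40, 30 were among the 47 called by limma-voom, 20 among those of the 2 groups alone and 17 among the 50 of the fit of all 27 libraries. For 0.5 h against untreated (1 gene) it was 100 with no filter, 15 with DESeq2, 3 in the fit of all 27 libraries, 0 with GC content and length corrected (1017 at an unadjusted p under 0.05, edgeR) and 0 to 9 with 1 library left out. For 24 h against untreated (477) it was 1214 with no filter, 877 with DESeq2, 2 with the striatal covariate and 153 to 437 with 1 library left out. For brain against meninges (86) it was 340 with DESeq2, 52 with the replicate block and 36 to 93 with 1 library left out, and for brain against skull (1285) 752 to 1264. The cause of these shifts was not tested.

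Whether replicate numbers pair the libraries could not be decided with 3 libraries a group. Deviations of same-numbered 0.5 h and 24 h libraries correlated from −0.0426 to 0.0704, and those of different numbers from −0.0787 to 0.0388. Of 6 libraries, 4 correlated best with their own number. With the replicate block 38 genes were called at 24 h against 0.5 h, 29 of the 40 among them, 1 and 340 against untreated, and 52 and 862 for the tissue differences. With the striatal covariate the value turned to −0.00054 for Miat, 0.0287 for Cry1, 0.18 for Pdyn, −0.0069 for Nrn1, 0.59 for Ngfr, 0.0045 for Grik3, 0.0918 for Gad2, 0.19 for Sp9, 0.0631 for Adora2a, 0.31 for Gpr52, 0.40 for Drd1, 0.23 for Rarb, −0.17 for Bhlhe22, −0.0762 for Neurod2, 0.84 for Nkx2-1, 0.83 for Hdc, 0.77 for Gal and 0.55 for Chat. With 3 libraries a group, 14208961 to 15314803 counts each, the precision of genes near 1 CPM is limited by counting.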

Other observations

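Clock genes gave no edgeR call among 20 tested, with 4 higher and 1 lower at an unadjusted p under 0.05, while DESeq2 called 2 higher and limma-voom 0. Nr1d2, a repressor of the clock, measured 108, 111 and 114 CPM at 0.5 h and 138, 138 and 135 CPM at 24 h (0.30 ± 0.07, edgeR adjusted p = 0.0666), and its relative Nr1d1 54.4, 52.7 and 66.4 CPM and 82.3, 70.2 and 78.8 CPM (0.41 ± 0.09, 0.0712). Dbp gave 0.41 ± 0.13 and Cry1 −0.44 ± 0.13. The labels give no time of day. Of 34 immediate early genes edgeR and limma-voom called 0, with 2 higher and 3 lower at an unadjusted p under 0.05, and DESeq2 called 1 higher and 3 lower. Apold1, an endothelial early gene, measured 30.1, 24.9 and 34.1 CPM in untreated brain, 11.53, 10.9 and 20.996 CPM at 0.5 h and 4.05, 6.05 and 6.86 CPM at 24 h (−1.35 ± 0.28, edgeR adjusted p = 0.0990). Klf2 gave −1.26 ± 0.30, Maff −1.59 ± 0.44 and Klf10 0.61 ± 0.18.

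Of 37 heat shock proteins 29 were negative and 11 lay wholly below, with a median of −0.07; edgeR and limma-voom called 0 and DESeq2 3 lower, with 7 lower and 1 higher at an unadjusted p under 0.05. The chaperone Hsph1 gave −0.26 ± 0.07, Cryab −0.56 ± 0.13, Fkbp4 −0.30 ± 0.08 and Hspa8 −0.20 ± 0.06. Among 36 glutamate and GABA receptor genes edgeR and limma-voom called 0 and DESeq2 2 lower, with 5 higher and 5 lower at an unadjusted p under 0.05. The NMDA receptor subunit Grin2c measured 52.4, 62.2 and 67.1 CPM at 0.5 h and 35.4, 47.3 and 44.9 CPM at 24 h (−0.51 ± 0.11, edgeR adjusted p = 0.0610), and Grm4 gave −0.59 ± 0.14. In the interferon-stimulated list the median was −0.27 over 37 genes and in the inflammatory list 0.05 over 19. With 1 library left out they ran from −0.48 to −0.01 and 0.00 to 0.23, and the interferon median was −0.01 without 0.5 h library 3. edgeR, DESeq2 and limma-voom called 0 in both, with 1 and 0 lower and 0 higher at an unadjusted p under 0.05.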
